A study of Mus musculus with 6 samples.

Results

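The oxidative and xenobiotic stress genes under the transcription factor NRF2 were examined in mouse liver group 1 innate lymphoid cells (ILC1s), tissue-resident lymphocytes that make interferon-gamma. The set was fixed by symbol as 10 genes, namely the regulators Nfe2l2 and Keap1 and the target genes Hmox1, Nqo1, Gclm, Gclc, Txnrd1, Srxn1, Slc7a11 and Gsr. Of these, 9 were found among the 23942 genes of the expression table, and Nqo1, a quinone reductase gene, was not analysed here. The libraries were 3 of naive ILC1s (treatment labelled solvent, day 0) and 3 of memory ILC1s (treatment labelled OXA, day 30), and the study asked how memory cells differ from naive ones. The labels do not spell out OXA, and the sources used here do not give strain, genotype, age, sorting gate or any pooling of animals. Both treatment and day separate the groups, and their effects cannot be told apart.

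NRF2, encoded by Nfe2l2, is a transcription factor that KEAP1 marks for degradation through the ubiquitin ligase scaffold CUL3. Oxidants and electrophiles modify KEAP1, NRF2 then accumulates, pairs with small MAF proteins and binds antioxidant response elements. Its best known targets make glutathione, reduce thioredoxin and glutathione, and break down heme and quinones. Since NRF2 is controlled largely through protein stability, the level of its mRNA is a separate quantity from its activity.

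Memory libraries held more Nfe2l2 mRNA than naive libraries, by 22.4% of the naive mean. The heme oxygenase gene Hmox1 and the glutathione reductase gene Gsr were also above every naive library in every memory library, without reaching the threshold of the main test. Gclm lay below every naive library in every memory library, without a call. Of all genes tested, 14.9% lay above and 9.24% below in this way. Group means of Keap1, both subunits of glutamate-cysteine ligase, thioredoxin reductase and sulfiredoxin differed by between -8.95% (Gclm) and 4.10% (Gclc) of the naive mean, without a call. The cystine transporter gene Slc7a11 was close to undetected.

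To set the genes beside the sequence NRF2 binds, promoters from RefSeq (build GRCm38.p6, the window from 250 bases before to 50 bases after the gene start) were searched on both strands for TGACNNNGC, the core of the antioxidant response element. Of the 9 genes, 6 matched the promoter table, and Hmox1, Gclc and Gsr did not. The motif was chosen after the values had been seen. The core was present in 4 of these 6 genes, against 3781 of the 27025 genes in that table. Counted by window, it was present in 4 of the 8 windows of these genes, against 12.4% of all 32851 windows. A match describes letters in a window and is not evidence of binding. The 250 bases before the start are shown for the called gene Nfe2l2 and, to contrast with it, for the uncalled targets Gclm and Txnrd1, 5′ to 3′ on the gene's strand, with the core in capitals.
Nfe2l2 (chr2:75704664-75704913, minus strand): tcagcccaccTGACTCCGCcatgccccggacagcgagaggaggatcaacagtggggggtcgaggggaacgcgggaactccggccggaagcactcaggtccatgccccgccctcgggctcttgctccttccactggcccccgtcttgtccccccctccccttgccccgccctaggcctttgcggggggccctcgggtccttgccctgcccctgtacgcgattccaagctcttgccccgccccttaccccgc
Gclm (chr3:122245307-122245556, plus strand): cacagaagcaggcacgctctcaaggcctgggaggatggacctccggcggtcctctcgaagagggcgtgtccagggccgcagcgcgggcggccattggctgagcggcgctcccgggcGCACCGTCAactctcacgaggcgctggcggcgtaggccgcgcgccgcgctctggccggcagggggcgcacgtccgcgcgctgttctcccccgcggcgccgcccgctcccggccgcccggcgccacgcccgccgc
Txnrd1 (chr10:82858956-82859205, plus strand): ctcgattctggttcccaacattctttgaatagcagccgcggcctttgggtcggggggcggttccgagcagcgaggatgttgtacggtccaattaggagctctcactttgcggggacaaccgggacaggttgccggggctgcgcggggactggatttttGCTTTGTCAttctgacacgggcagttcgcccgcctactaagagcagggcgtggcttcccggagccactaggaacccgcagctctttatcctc
In Nfe2l2 the core lay 240 to 232 bases before the start and read TGACTCCGC. In Gclm it lay 134 to 126 bases before the start and read GCACCGTCA, the reverse strand form. In Txnrd1 the match was at 1 of 3 annotated starts, 92 to 84 bases upstream, as GCTTTGTCA. The match of Srxn1 lay 28 to 36 bases after the first base of the gene, and Keap1 and Slc7a11 had none of these letters in the window. Of the 4 genes with the core, Nfe2l2 was called in the test below and the other 3 were not.

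Values are RPKM, read counts per exon length and per library total. A difference is the memory mean of log2(RPKM + 1) less the naive mean, with standard errors (SE) and adjusted p from limma over all 13793 genes tested. "Called" means an adjusted p under 0.05, which applied to 4.17% of all genes tested. Whole reads recovered from the values summed to between 18697093 and 23795266 per library, and 18571 to 19349 genes had a read. Of 8 genes on a marker list for liver ILC1s, 7 were not called. Among these were the receptor genes Ncr1 (488 and 505 RPKM in naive and memory) and Klrb1c (133 and 131). Groups did not overlap for 3 of the 8, higher in memory for 1 and lower for 2, beside 24.1% of all genes tested. The chemokine receptor gene Cxcr6 fell from 58.8 to 48.0 RPKM (adjusted p = 0.0144) and Il7r was at 60.9 and 66.1. That fall missed the threshold when any 1 of 4 libraries was left out (adjusted p up to 0.0648).

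Genes on a macrophage and monocyte marker list differed sharply between the groups. They were higher in memory libraries, as were several genes below. Which cells carried this RNA was not tested, nor was a link to those genes. Of 17 tested markers on that list, 15 were higher in memory and none lower. Their summed level over 20 genes was 54.6 to 61.5 RPKM in naive and 576 to 604 RPKM in memory libraries, and 18.7 to 21.1 against 134 to 140 without Lyz2, the myeloid lysozyme gene. No marker on it was at 0 in all naive libraries. Lyz2 itself was at 37.8 and 448 RPKM, Mpeg1 (perforin-2) at 1.69 and 18.2 and Cybb (a subunit of the phagocyte oxidase) at 2.32 and 23.7. Kupffer cells, the resident macrophages of liver that take up red cells and carry heme oxygenase, were followed with a list of 6 genes, whose sum was 14.2 to 15.8 RPKM in naive and 18.2 to 20.2 in memory libraries. Of its 5 tested genes Clec4f rose (2.88 to 4.68 RPKM, adjusted p = 0.0134), a call lost without any 1 of 4 libraries (adjusted p up to 0.0615), and Cd5l was at 8.41 and 10.1. The hepatocyte list, led by Alb (1.40 and 3.86 RPKM, adjusted p = 0.0336) and with Apoa1 at 0.46 and 1.32 and Ass1 at 1.28 and 1.47, summed to 3.66 to 5.41 and 7.99 to 9.28 RPKM. The call of Alb was lost without any of 5 libraries (adjusted p up to 0.112). Neutrophil markers summed to at most 0.827 RPKM in naive and 2.12 in memory libraries, with Csf3r alone above the filter and higher (0.17 and 1.55). The naive mean of Csf3r was under the filter of 0.5 RPKM, which it passed through its memory values. B cell markers overlapped between groups (78.4 to 90.2 and 84.4 to 87.6 RPKM), nearly all of it Ighm (85.0 and 85.4), with Cd79b at 0.86 and 0.80. Of the endothelial and stellate cell list only Pecam1, which leukocytes also carry, passed the filter (14.9 and 18.6 RPKM, adjusted p = 0.0682), and the stellate gene Lrat was at 0 in every naive library.

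**Figure D1:**
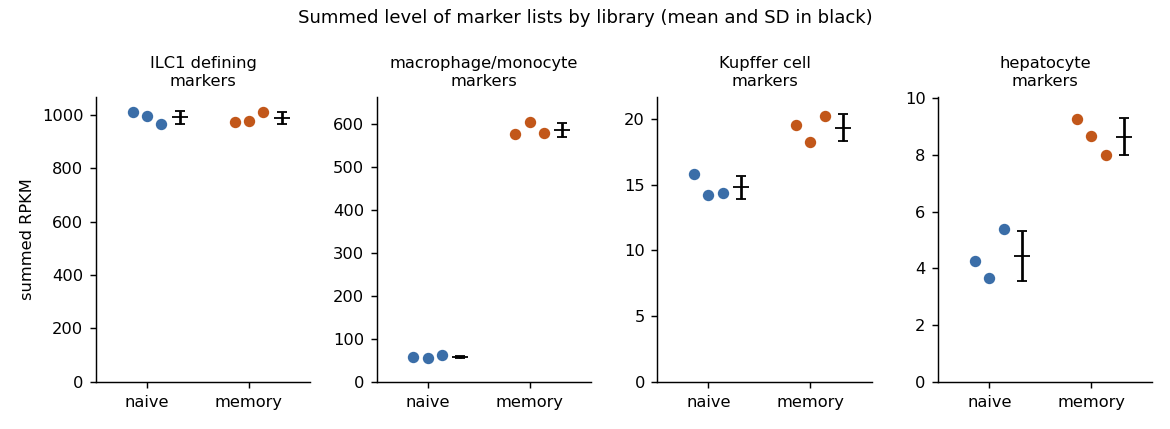
Summed RPKM of marker lists (vertical axes, linear from 0) in the 3 naive and 3 memory libraries, 1 point per library, with the group mean and SD in black. The ILC1 marker sum overlaps between the groups (964 to 1012 and 972 to 1012 RPKM), while the macrophage and monocyte sum is 54.6 to 61.5 in naive and 576 to 604 in memory libraries.

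Among the 8 members above the expression filter, 1 was called, beside 4.17% of all genes tested, and the other 7 were not. The median change of the 8 was 0.04, beside 0.02 for all genes tested. The groups did not overlap for 4 of the 8, higher in memory for 3 and lower for 1. Over all genes tested, groups did not overlap for 24.1%, of which 14.9% were higher in memory and 9.24% lower (percentages of all genes tested). Voom, a limma fit of the recovered reads, called 3 of the 8 members (Nfe2l2, Hmox1 and Gsr) and 8.27% of all genes tested. The members were chosen with earlier results of these data known, so these counts describe the members and are no test of the set.

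**Figure D2:**
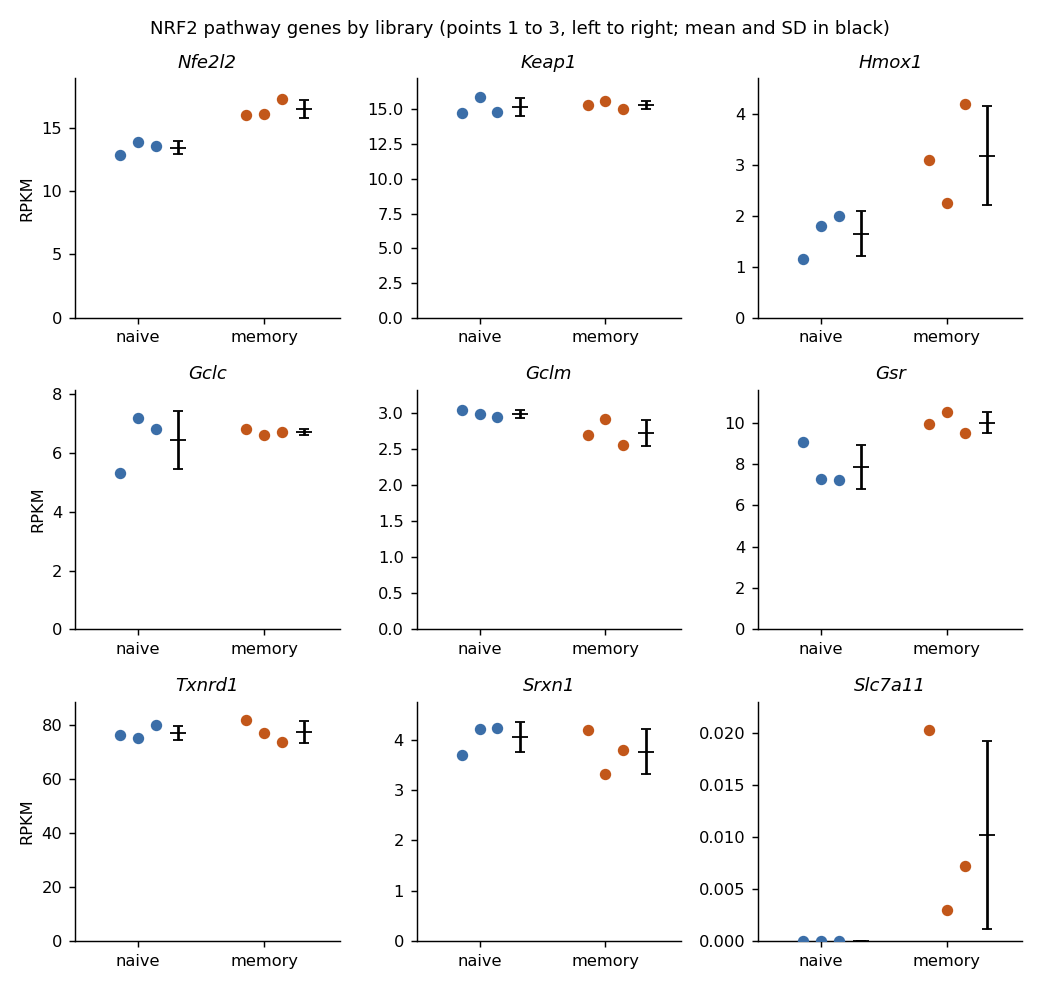
RPKM (vertical axes, linear from 0, scaled per gene) of the 9 genes in each library, points 1 to 3 from left to right within the naive and memory groups, with the mean and SD in black. Nfe2l2, Hmox1 and Gsr are higher in every memory than in every naive library, Gclm is lower, and Slc7a11 does not exceed 0.0203 RPKM.

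The regulators came first in the pathway and differed from each other. Nfe2l2 (chromosome 2, 75675513 to 75704641, minus strand, mm10) was at 12.9, 13.9 and 13.6 RPKM in naive replicates 1 to 3 and at 16.0, 16.0 and 17.3 RPKM in memory replicates 1 to 3, from 913 to 1449 reads per library. Every memory library lay above every naive library. The mean rose from 13.4 ± 0.51 to 16.4 ± 0.71 RPKM (SD, n = 3 each). On the log2 scale the difference was 0.27 (SE 0.05, limma adjusted p = 0.0422). That change exceeded those of 89.3% of all genes tested. The call was close to the threshold and did not survive leaving out any 1 of the 6 libraries (limma adjusted p 0.0954 to 0.136). It was also lost under quantile normalization (adjusted p = 0.0871), median ratio scaling (0.0611) and no filter on low values (0.0544), while voom called it (0.00814).

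Keap1, the sensor that holds NRF2 down (chromosome 9, 21229730 to 21239361, minus strand), was at 14.7, 15.9 and 14.8 RPKM in naive and 15.3, 15.6 and 15 RPKM in memory libraries. The groups overlapped, and the log2 change was 0.01 with a 95% interval of -0.10 to 0.13 (adjusted p = 0.922). Its sign turned negative under quantile normalization and median ratio scaling (-0.016 and -0.013). Keap1 shares up to 510 exon bases with an antisense gene, Gm16754, which was at 15.8 to 17.7 RPKM. The strand setting of the counting is unknown from the labels, and reads of the pair cannot be told apart without it.

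The order of the pair by RPKM switched between the groups. Nfe2l2 was below Keap1 in each naive library, at 0.872, 0.873 and 0.915 of its RPKM, and above it in each memory library, at 1.04, 1.03 and 1.15. By reads, which are not divided by exon length, Nfe2l2 was below Keap1 in every library. Memory replicates 1 to 3 had 1291, 1449 and 1300 reads of Nfe2l2 against 1528, 1739 and 1397 of Keap1. The RPKM ratio within a library does not depend on a scaling factor per library, but its place above or below 1 depends on the exon lengths. The ratio was computed after the values had been seen and is given without a test.

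**Figure D3:**
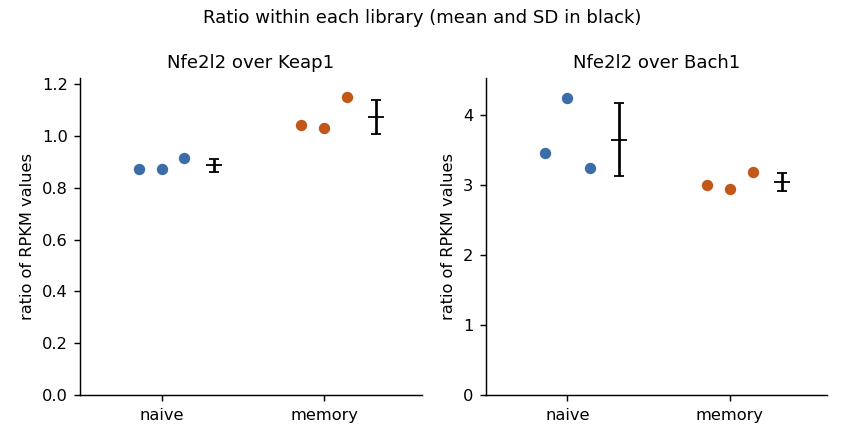
Ratio of Nfe2l2 RPKM to Keap1 RPKM (left) and to Bach1 RPKM (right) within each library, on linear axes from 0, with the group mean and SD in black. Nfe2l2 over Keap1 is below 1 in all 3 naive and above 1 in all 3 memory libraries, and Nfe2l2 over Bach1 is 3.25 to 4.24 in naive and 2.94 to 3.18 in memory libraries.

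The level of Hmox1, whose product opens the heme ring and releases iron, biliverdin and carbon monoxide, was low and scattered. This gene (chromosome 8, 75093621 to 75100589, plus strand) was at 1.16, 1.80 and 2.00 RPKM in naive and at 3.09, 2.26 and 4.20 RPKM in memory libraries, from 38 to 146 reads. The lowest memory value stood just above the highest naive one, and the memory libraries differed more among themselves than the naive ones. The naive mean was 1.65 ± 0.44 RPKM and the memory mean 3.18 ± 0.98 RPKM (SD, n = 3 each). The log2 change of 0.64 (SE 0.20, 95% interval 0.16 to 1.13) missed the threshold (limma adjusted p = 0.161). It passed with voom (log2 change 0.89, SE 0.28, adjusted p = 0.0426; range over the 15 alternatives 0.0426 to 0.345). The Kupffer list summed to 19.6, 18.2 and 20.2 RPKM in memory replicates 1 to 3 and to 15.8, 14.2 and 14.3 RPKM in naive replicates 1 to 3. The macrophage and monocyte list summed to 576, 604 and 577 RPKM in memory replicates 1 to 3. In naive replicates 1 to 3 its sums were 57.5, 54.6 and 61.5 RPKM. In bulk RNA, more cells of a type and more RNA per cell cannot be told apart, and the part of macrophage RNA in the Hmox1 values was not tested.

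None of the 3 tested glutathione members was called. Gsr, which reduces oxidised glutathione with NADPH (chromosome 8, 33652523 to 33698163, plus strand), was at 9.07, 7.27 and 7.20 RPKM in naive and 9.95, 10.5 and 9.49 RPKM in memory libraries. All memory values were above all naive ones, though naive replicate 1 stood nearer to memory than to the other two. The log2 change was 0.32 (SE 0.09, 95% interval 0.09 to 0.54), not called (limma adjusted p = 0.139). It passed the threshold without naive replicate 1 (adjusted p = 0.0462) and with voom (0.0316), in a range of 0.0316 to 0.322 over the 15 alternatives.

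Glutamate-cysteine ligase, the rate-limiting enzyme of glutathione synthesis, has a catalytic subunit encoded by Gclc and a modifier subunit encoded by Gclm. Gclc (chromosome 9, 77754535 to 77794485, plus strand) was at 5.33, 7.19 and 6.81 RPKM in naive and 6.82, 6.60 and 6.70 RPKM in memory libraries. The memory values fell inside the naive range, and naive replicate 1 was the low one. Its log2 change was 0.06 (95% interval -0.19 to 0.31, adjusted p = 0.83) and turned to -0.05 without naive replicate 1. Gclm (chromosome 3, 122245557 to 122270732, plus strand) was at 3.04, 2.98 and 2.93 RPKM in naive and 2.69, 2.91 and 2.55 RPKM in memory libraries. Each memory value lay below each naive one by a small margin, and the log2 change of -0.10 (95% interval -0.29 to 0.09) was not called (adjusted p = 0.577). Gclm shares 244 exon bases with the pseudogene Gm6061 on the same strand (27.1 to 33.3 RPKM) and 296 with Gm17494 on the opposite strand (1.81 to 2.21 RPKM), so its reads are uncertain.

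Slc7a11, the light chain of the antiporter that brings in cystine for glutathione (chromosome 3, 49892526 to 50443614, minus strand), had 0 reads in all 3 naive libraries and 6, 1 and 2 reads in memory replicates 1 to 3. If reads are counted independently, which the excess of even counts may not allow, a count of 0 allows up to 3 reads. That is 0.0115 RPKM in the shallowest naive library. Memory replicate 1 alone exceeded 3 reads, at 0.0203 RPKM. The gene was left out by the filter of a mean of 0.5 RPKM, and no fold change is given. The heavy chain of the same antiporter, Slc3a2, which also pairs with other amino acid carriers, was at 27.9 and 28.4 RPKM (chosen after its values were seen).

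Neither member of the thioredoxin branch was called. Txnrd1, the cytosolic selenoprotein that reduces thioredoxin (chromosome 10, 82859206 to 82897724, plus strand), was at 76.3, 75.1 and 80.0 RPKM in naive and 81.8, 77.3 and 73.7 RPKM in memory libraries, from 4874 to 6284 reads. It was the highest member of the set by RPKM, and the groups overlapped. With this depth the 95% interval of the log2 change was -0.11 to 0.12 around 0.01 (adjusted p = 0.958), and the sign turned under median ratio scaling (-0.021). Srxn1, which repairs over-oxidised peroxiredoxins (chromosome 2, 152105516 to 152111376, plus strand), was at 3.70, 4.22 and 4.23 RPKM in naive and 4.19, 3.31 and 3.79 RPKM in memory libraries. Its groups overlapped too, with a log2 change of -0.09 (95% interval -0.32 to 0.14, adjusted p = 0.711). The intervals of Gclc, Gclm and Srxn1 reach changes as large in size as that of Nfe2l2, and those of Keap1 and Txnrd1 do not.

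**Figure D4:**
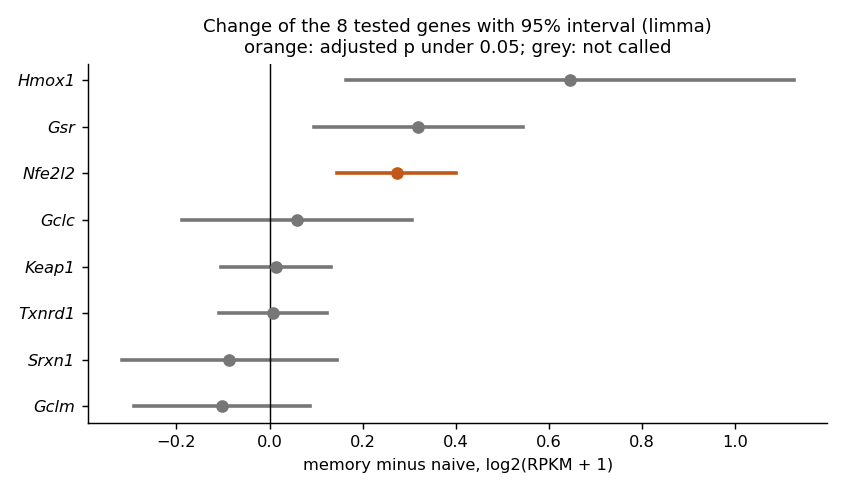
Change of the 8 tested genes (horizontal axis, difference of memory from naive in log2(RPKM + 1)), points with 95% intervals from limma, orange where the adjusted p is under 0.05. Nfe2l2 at 0.27 is the called gene, and the wider intervals of Hmox1 (0.16 to 1.13) and Gsr (0.09 to 0.54) also lie above 0 before adjustment over all genes.

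By RPKM, which is per length, the order of levels in naive libraries was Txnrd1, Keap1, Nfe2l2, Gsr, Gclc, Srxn1, Gclm, Hmox1 and Slc7a11, and no neighbours in that order had overlapping ranges, though the lowest Gsr value (7.20) and the highest Gclc value (7.19) nearly met. In memory libraries Nfe2l2 stood above Keap1 and Hmox1 above Gclm. There the ranges of Srxn1 and Hmox1 overlapped, as did those of Hmox1 and Gclm. The 3 genes whose values followed Nfe2l2 most closely over the 6 libraries were Ino80e (Pearson r = 0.999, 3.96 and 4.66 RPKM), Hes1 (0.997, 0.24 and 0.97 RPKM) and Slk (0.997, 69.0 and 72.8 RPKM). These coefficients are the highest of all genes tested, come from 6 points in 2 groups and are given as a description. The naive mean of Hes1 was under the filter of 0.5 RPKM, which it passed through its memory values.

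The wider pathway was followed with 6 lists of 124 genes, of which 6 were not analysed here and 96 were tested. Of these 96, 6 rose, none fell and 90 were not called, so 6.25% were called where 3.2% of all genes tested were called higher and 0.972% lower. The median change was 0.02, like that of all genes. Groups did not overlap for 31, or 32.3% (22 higher and 9 lower in memory), beside 24.1% of all genes tested. The 6 that rose were Bach1, Gpx1, Idh1, G6pdx, Aldh2 and Ftl1.

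**Figure D5:**
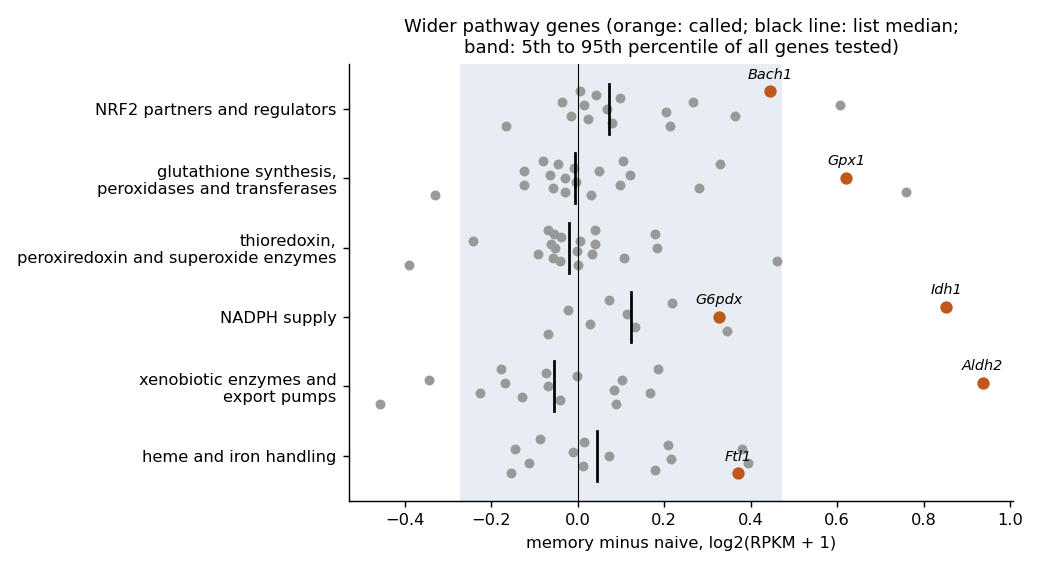
Change of the 96 tested pathway genes by list (horizontal axis, difference of memory from naive in log2(RPKM + 1)), 1 point per gene, orange where called, with the list median as a black line and the middle 90% of all genes tested as a band. The 6 called genes lie between 0.33 and 0.94, and the list medians lie between -0.06 and 0.12.

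Among 16 tested partners and regulators of NRF2, Bach1 rose and none fell (median 0.07). BACH1 is a heme-sensing repressor that competes with NRF2 for small MAF partners and the same DNA elements. It was at 3.72, 3.27 and 4.17 RPKM in naive and 5.34, 5.46 and 5.43 RPKM in memory libraries. The memory libraries were nearly alike and all above the naive ones (log2 change 0.45, SE 0.09, limma adjusted p = 0.0422). Nfe2l2 over Bach1 averaged 3.65 ± 0.52 for naive and 3.04 ± 0.12 for memory (SD, n = 3 each), a ratio chosen after the values had been seen and given without a test. The small MAF genes Mafk (14.6 and 17.1 RPKM), Maff (6.11 and 8.11) and Mafg (5.27 and 6.23), named after their values were seen, were each higher in all memory than in all naive libraries, without a call (adjusted p 0.131 to 0.294). Of all genes tested, 14.9% were higher in memory without overlap. The most abundant members were Cul3 (85.7 and 87.1 RPKM), the ligase scaffold that KEAP1 uses, and Sqstm1 (58.5 and 59.1), the autophagy adaptor that can sequester KEAP1. Neither was called, and the sign of both turned under median ratio scaling.

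In the glutathione list 1 of 20 tested genes rose. Gpx1, the cytosolic peroxidase that uses glutathione to reduce hydrogen peroxide, was at 56.2, 47.7 and 43.1 RPKM in naive and 74.1, 80.6 and 71.9 RPKM in memory libraries. The groups were well apart (log2 change 0.62, SE 0.10, adjusted p = 0.018). The glutathione synthetase gene Gss, named after its values were seen, was at 1.53, 1.51 and 1.18 RPKM in naive and 2.12, 1.80 and 1.84 RPKM in memory libraries, without overlap and without a call (log2 change 0.28, adjusted p = 0.241). Gpx4, the peroxidase of membrane lipids, was at 41.8 and 41.7 RPKM (adjusted p = 0.989). None of 20 thioredoxin, peroxiredoxin and superoxide genes was called in the main fit. By voom, which called 8.27% of all genes tested, Prdx5 was called (42.9 and 48.8 RPKM, voom adjusted p = 0.0443, named after its values were seen). Groups did not overlap for 2 of the 20, beside 24.1% of all genes tested. These were Prdx5 (higher in memory) and the sestrin gene Sesn2 (lower, 1.17 and 0.84 RPKM, adjusted p = 0.36, also named after its values were seen). The most abundant of the 20 were the superoxide dismutase gene Sod1 (201 and 194 RPKM) and Txnip (89.9 and 91.9), which encodes a thioredoxin inhibitor.

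Of 10 tested genes on the list for NADPH, the reductant both branches use, 2 rose and none fell. G6pdx, the first enzyme of the pentose phosphate pathway, was at 11.7, 12.9 and 11.7 RPKM in naive and 14.9, 15.9 and 15.6 RPKM in memory libraries. All memory values exceeded the naive ones (log2 change 0.33, SE 0.06, adjusted p = 0.0306). Idh1, the cytosolic isocitrate dehydrogenase, was at 3.09, 2.24 and 1.98 RPKM in naive and rose to 4.81, 5.28 and 5.36 RPKM in memory libraries (log2 change 0.85, SE 0.13, adjusted p = 0.0158). Taldo1 (42.2 and 41.5 RPKM) and Me2 (29.9 and 28.4) were the most abundant on the list and were not called.

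Of 16 xenobiotic enzymes and pumps, Aldh2, a mitochondrial aldehyde dehydrogenase, rose to a mean of 1.58 RPKM, against 0.35 RPKM in naive libraries (log2 change 0.94, SE 0.11, adjusted p = 0.00566). It was at 0.29, 0.31 and 0.44 RPKM in naive and 1.74, 1.46 and 1.54 RPKM in memory libraries. Its naive values were under the filter of 0.5 RPKM, which it passed through the memory values. Akr1a1 (38.7 and 37.6 RPKM) and the efflux pump gene Abcb1a (37.2 and 37.1) were the most abundant and not called. Others lay in the opposite direction. The epoxide hydrolase gene Ephx1 was at 8.98 and 6.29 RPKM (adjusted p = 0.0513) and the carbonyl reductase gene Cbr1 at 14.4 and 11.1 (0.0932), both lower in every memory library than in every naive one and named after their values were seen. Of all genes tested, 9.24% were lower in memory without overlap. Ephx1 was called lower in 4 of the 15 alternatives, namely quantile normalization, median ratio scaling, array weights and voom (adjusted p 0.00913 to 0.153 over the 15). Cbr1 was called lower in 1 of them, without naive replicate 3 (adjusted p 0.0417 to 0.235 over the 15).

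Of 14 heme and iron genes, Ftl1, the ferritin light chain, rose and none fell (median 0.04). It was at 24.1, 24.5 and 20.6 RPKM in naive and 31.1, 30.2 and 28.8 RPKM in memory libraries (log2 change 0.37, SE 0.07, adjusted p = 0.0421). The ferritin heavy chain gene Fth1 was at 239 and 270 RPKM, not called (adjusted p = 0.176; 0.0207 by voom). Hmox2, the constitutive heme oxygenase, was at 30.5 and 30.3 RPKM, well above Hmox1 in both groups. The metallothionein genes Mt1 and Mt2 had 0 reads in all naive libraries and were close to undetected in memory libraries as well, with 0, 2 and 0 reads for Mt1 and 0, 0 and 4 for Mt2.

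Of the 6 calls, that of Aldh2, a gene that passed the filter through its memory values, held whichever library was left out. Bach1 and Ftl1 lost theirs without any library but naive replicate 3, and G6pdx without any but naive replicate 2. Gpx1 and Idh1 lost theirs without naive replicate 2 or any memory library. Adjusted p in those fits reached 0.141 for Bach1, 0.137 for Ftl1, 0.121 for G6pdx, 0.0805 for Gpx1 and 0.0743 for Idh1. Bach1 also missed the threshold with no filter (0.0784), quantile normalization (0.0696) and median ratio scaling (0.0536), and Ftl1 with no filter (0.0794) and median ratio scaling (0.0501). The macrophage and monocyte marker sum of 54.6 to 61.5 RPKM in naive and 576 to 604 RPKM in memory libraries moved in the same direction as these genes and Nfe2l2, and its part in them was not tested.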

How the data were processed

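RNA from 3 naive and 3 memory liver ILC1 samples was sequenced after TRIzol extraction and stranded mRNA library preparation, per the labels' protocols. The authors deposited RPKM values per gene, with exon length and position per the file headers. Per the submitters' processing notes, the tools were edgeR 3.12.1, Subread 1.5.1, featureCounts and STAR 2.5.3a and the build mm10, with no roles stated. The sources used here do not give the annotation or strand setting. RPKM scales by the library's total, so a gene's value also depends on the other genes' share.

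Samples were grouped by their labels, which do not say whether replicates are separate animals. The p-values therefore reflect the spread among these libraries alone, possibly technical. RPKM times exon length gave whole reads for 100% of values (tolerance 0.01 of a read). Among counts of 1 to 10, 69.8% to 72.3% were even, so counts may not be independent. Floors cover counting error only. Groups were compared with limma-trend (R 4.3.3, limma 3.58.1) on log2(RPKM + 1), two-sided, keeping genes whose mean over the libraries reached 0.5 RPKM, with Benjamini-Hochberg adjustment at 0.05 over 13793 genes, tested on simulated data first. The pseudocount understates changes of low genes. Tables and figures used Python 3.11.15 and matplotlib 3.10.9.

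The members and lists were chosen with earlier results of these data known. Named were all members, called genes and the most abundant genes of each pathway list, and the most significant and most abundant of each marker list; genes outside this rule are said to be. Alternatives were other pseudocounts, filters and scalings, array weights, a replicate block, voom on recovered reads, and each library left out.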

Additional observations from a re-analysis of the deposited data

How the results depend on the processing

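The single member called, Nfe2l2, was also called with pseudocounts of 0.1 and 0.5, a filter of 2 RPKM, array weights and voom, and the member count was 0 with no filter, quantile normalization, median ratio scaling or the replicate block, 3 with voom on recovered reads, and 0 to 1 without each library in turn (the 1 is Gsr, without naive replicate 1). The pathway count of 6 became 2 with the replicate block, 15 with voom and 1 to 6 without each library. None of the 6 was lower, but 1 gene was called lower under quantile normalization, median ratio scaling, array weights and voom (Ephx1) and without naive replicate 3 (Cbr1). The count over all genes, 575, became 271 with the replicate block, 1141 with voom and 275 to 387 without each library. Same-numbered libraries did not deviate together (correlations of -0.084, -0.040 and -0.003), so the block rests on a shared number only. Voom takes counts as independent, which the excess of even counts may not allow. Slc7a11 had at most 6 reads in a library and Hmox1 had 38 to 146.

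Signs turned for small, uncalled changes. With median ratio scaling Keap1 was at -0.013, Txnrd1 at -0.021, Cul3 at -0.0054, Sqstm1 at -0.015 and Ighm at -0.019. With quantile normalization Keap1 was at -0.016, Sod1 at 0.025 and Klrb1c at 0.016, and with array weights Abcb1a was at 0.00094. Without each library in turn, the log2 change ranged from -0.0032 to 0.047 for Keap1, -0.054 to 0.13 for Gclc, -0.030 to 0.044 for Txnrd1, -0.064 to 0.044 for Gpx4, -0.076 to 0.0082 for Akr1a1, -0.027 to 0.026 for Abcb1a, -0.051 to 0.025 for Hmox2, -0.20 to 0.078 for Cd79b and -0.060 to 0.045 for Ighm. Directions of Nfe2l2, Hmox1, Gsr, Gclm and Srxn1 were the same under all 15 alternatives. For Nfe2l2, Hmox1, Gsr and Gclm the groups did not overlap, so leaving out a library or changing the pseudocount could not turn the sign. The filters and the replicate block leave the estimate of a kept gene as it is.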
